A study of Monopterus albus with 3 samples.

Results

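Giant-exon loci are the spliced coding loci of the swamp eel *Monopterus albus* in which at least 1 coding exon measures 2000 bp or more. They were taken from the authors' transcript models of the gonad, in which each exon had been trimmed to the open reading frame (ORF), so that every exon length given here is a coding length. Of the transcripts of a locus, the one with most coding bases was taken (its coding sequence, CDS), and loci with 2 to 29 coding exons were kept. By this rule 315 of 63334 loci were giant-exon loci, which is 2.08% of the loci with 2 to 29 coding exons and 11.4% of those whose CDS also reached 2000 bp. A further 12 loci with a giant exon had 30 or more coding exons and were left out, as were 99 loci whose only coding segment reached this length. They were set beside 14849 loci with 2 to 29 coding exons and no giant exon, called comparison loci below, and beside the 2451 of these with a CDS of at least 2000 bp, called long comparison loci.

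The models came from 3 RNA-seq libraries of poly(A) RNA, 1 each from the ovary of females, the ovotestis of intersex fish and the testis of males, with no replicates. No strain, age, treatment or number of fish per library is given in the labels. Each transcript carries 1 read coverage and 1 FPKM value for the series as a whole and none per gonad, so the gonads could not be compared and no replicate error could be measured. All 75480 transcripts had a median coverage of 37.2. The number of reads in each library is not known here. The identifiers of the models are those of the assembler and carry no gene names, so that loci are named by their position on the authors' scaffolds (1-based) and no function can be given to any of them.

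Most coding exons of vertebrates are short, since the splicing machinery recognises an exon by pairing the splice sites at both of its ends. Long coding exons are exceptions. Known examples in vertebrates are the large internal exons of BRCA1 and BRCA2, whose products act in the repair of DNA breaks, the first coding exons of clustered protocadherins, which hold the whole extracellular part of these adhesion proteins, and the last exons of many zinc finger genes, which hold the DNA-binding fingers. Where an intron lies in the reading frame is called its phase. An intron of phase 0 lies between codons, one of phase 1 after the first base of a codon and one of phase 2 after the second, and an internal exon with the same phase at both ends can be skipped or inserted without shifting the frame. The swamp eel changes sex naturally, and its gonad is first an ovary, then an ovotestis and at last a testis.

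Giant exons were rare and far longer than the exons around them. The 315 loci held 323 giant exons, or 0.273% of the 118196 coding exons of all loci with 2 to 29 exons. Among the loci, 307 had 1 giant exon and 8 had 2. The longest exon of a giant-exon locus measured 2672 bp at the median, with quartiles of 2278 and 3406 bp and a maximum of 11023 bp, whereas the other 2524 exons of the same loci had a median of 135 bp and the exons of the comparison loci a median of 120 bp. A length under 2500 bp was found at 127 loci, over 3000 bp at 119 and over 5000 bp at 22. The limit of 2000 bp cut through a continuous range. The 3 members nearest to it measured 2001, 2002 and 2002 bp, and the 3 comparison loci nearest to it had longest exons of 1996, 1992 and 1991 bp.

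The 10 longest giant exons lay on 10 scaffolds. The longest, of 11023 bp, was the first coding exon on scaffold 7 (5389553 to 5402594, plus strand), and only 233 and 156 bp of coding sequence followed it in the other exons. The next, of 10952 bp, was the last of 4 exons on scaffold 24 (1828573 to 1842114, minus strand), after exons of 85, 1429 and 89 bp. These giant exons held 96.6% and 87.2% of the CDS, at opposite ends of the ORF. A giant exon of 9396 bp opened the ORF on scaffold 57 (1541492 to 1553679, plus strand) and was followed by 8 exons of 37 to 159 bp. Inside the ORF, the longest was the 7831-bp exon on scaffold 126 (2765837 to 2792212, minus strand), which was exon 11 of 15. It was followed in rank by the 7241-bp exon on scaffold 4 (3366312 to 3387588, plus strand), which was exon 7 of 11. Neither of these internal exons had a neighbour above 345 bp. The remaining 5 were first exons of 7188 bp on scaffold 342 and 6486 bp on scaffold 174, an internal exon of 6747 bp on scaffold 176, and last exons of 7064 bp on scaffold 106 and 6588 bp on scaffold 128.

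**Figure D1:**
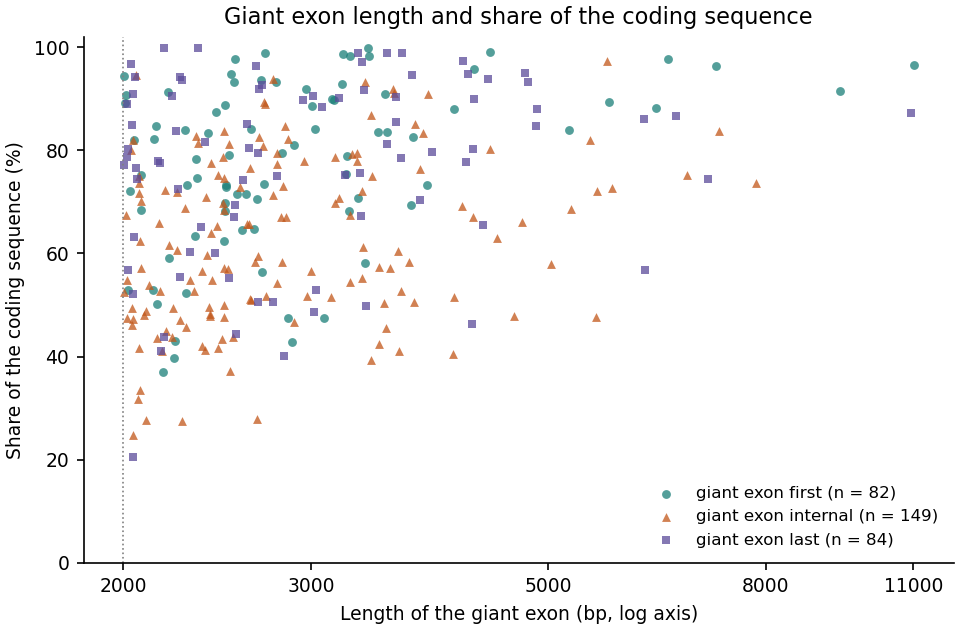
Length of the giant exon (bp, log axis) against its share of the coding sequence (%) for the 315 giant-exon loci, 1 point per locus, with the symbol giving the place of the exon in the ORF and the dotted line the limit of 2000 bp. Shares run from 20.6% to 99.9%, internal giant exons lie lower (median 61.6%) than first (82.1%) and last ones (80.2%), and the 3 longest were first or last.

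A giant exon carried most of the protein at most of these loci. Its share of the CDS was 72.9% at the median (95% interval of the median 69.8% to 75.2%), exceeded 50% at 262 loci and exceeded 90% at 54. The share of the longest exon was 15.7% at the median in the long comparison loci, a value that the limit on length sets in part. First giant exons held 82.1% of the CDS at the median (n = 82), last ones 80.2% (n = 84) and internal ones 61.6% (n = 149). The 3 largest shares rested on very small coding pieces in the only other exon. On scaffold 49 (176390 to 178758, plus strand) a first exon of 2 bp preceded a giant exon of 2182 bp, on scaffold 99 (3560559 to 3571245, plus strand) a giant exon of 3394 bp preceded a last one of 5 bp, and on scaffold 65 (7500 to 9969, minus strand) a first exon of 6 bp preceded one of 2352 bp. At the other end, the giant exon was 20.6% of a CDS of 9912 bp on scaffold 38 (4720050 to 4781193, plus strand), where it was the last of 28 exons. The next smallest shares were 24.8% on scaffold 106 (1591423 to 1606301, minus strand, 29 exons) and 27.5% on scaffold 251 (319373 to 343800, minus strand, 26 exons).

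Giant exons were found at every place in the ORF, and inside it more often than at either end. They were internal at 149 loci (47.3%, 95% Wilson interval 41.9% to 52.8%), last at 84 (26.7%, 22.1% to 31.8%) and first at 82 (26.0%, 21.5% to 31.1%). These intervals, like all others on shares below, cover counting error only. Where exons, introns or transcripts are counted below, several can come from the same locus. The intervals treat them as independent and can be too narrow. Over all exon numbers, the longest exon of the comparison loci was internal in 49.8%, last in 27.7% and first in 22.4%, close to the shares of giant exons. In the long comparison loci it was internal far more often, in 70.8%, but these loci also had more exons, 17 at the median against 7.

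Since a locus with few exons has few internal ones, the place was compared within classes of exon number. With 2 exons, the giant exon was last in 21 of 37 loci (56.8%), and the longest exon was last in 59.1% of the long comparison loci. With 3 to 5 exons it was first in 36 of 92 (39.1%, 29.8% to 49.3%), against 27.7% (19.2% to 38.2%) in the long comparison loci and 23.9% (22.6% to 25.3%) in all comparison loci. The interval for giant exons thus lay apart from that for all comparison loci and overlapped that for the long ones. The same held for internal exons in this class. Giant exons were internal in 30.4% (22.0% to 40.5%), against 28.9% (20.3% to 39.4%) in the long comparison loci and 46.8% (45.2% to 48.3%) in all comparison loci. With 6 to 10 exons the giant exon was internal in 51 of 88 (58.0%), and with 11 to 29 exons in 70 of 98 (71.4%, 61.8% to 79.4%), beside 51.6% and 75.9% of the long comparison loci. In each class of exon number and at each place, the intervals for giant-exon loci and long comparison loci overlapped.

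**Figure D2:**
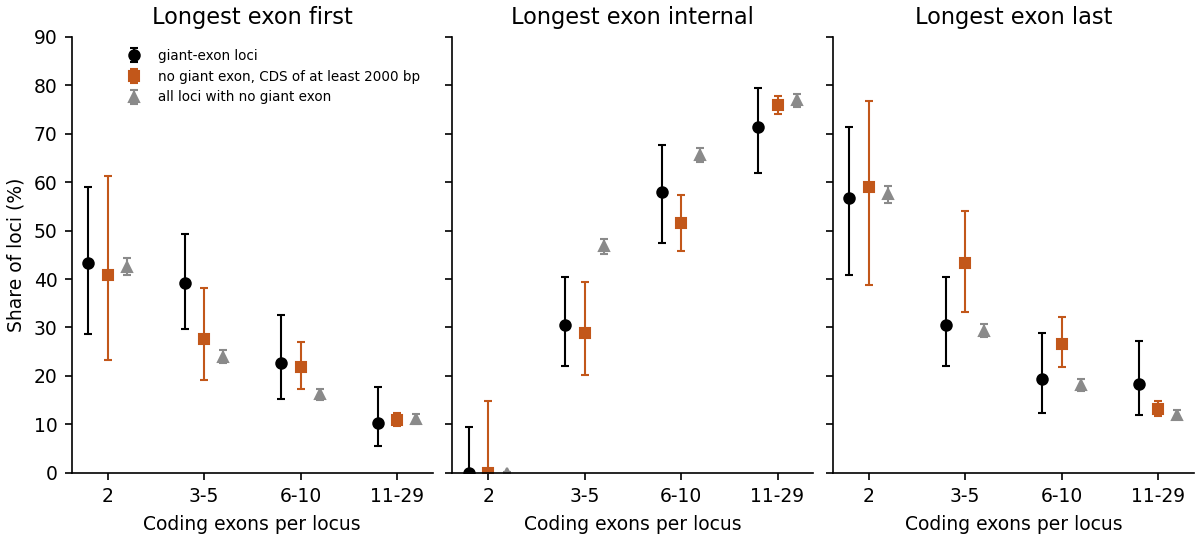
Share of loci (%) whose longest coding exon was first, internal or last, by number of coding exons, for giant-exon loci, long comparison loci and all comparison loci; bars are 95% Wilson intervals. The internal share of giant-exon loci rises from 30.4% at 3 to 5 exons to 71.4% at 11 to 29, and its bars overlap those of the long comparison loci throughout.

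Counted from the start of the ORF, the giant exon was exon 1 at 82 loci (26.0%), exon 2 at 66 (21.0%, 16.8% to 25.8%) and exon 3 at 29. In the 2451 long comparison loci, the longest exon was exon 1 at 319 and exon 2 at 194 (7.92%), so that both places were taken more often by giant exons. Of the 66 loci with a giant exon 2, 21 had only 2 exons. Among internal giant exons with 11 to 29 exons in the locus, 11 of 70 were exon 2 (15.7%, 9.01% to 26.0%), against 8.63% (7.34% to 10.1%) in the long comparison loci, and with 6 to 10 exons 13 of 51 (25.5%) against 20.4%. These intervals overlapped, so that a higher share of exon 2 was not resolved once exon number was held alike. The coding sequence outside the giant exon was counted at each place, beside a median whole CDS of 915 bp in all comparison loci. A last giant exon was preceded by 677 bp at the median, a first one was followed by 694 bp, and an internal one had 649 bp before it and 771 bp after it.

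The 8 loci with 2 giant exons placed them in different ways. At 3 of them the giant exons were adjacent. On scaffold 33 (560903 to 579706, plus strand) exons of 3285 and 6168 bp closed an ORF of 10863 bp after 9 exons of 84 to 357 bp, on scaffold 45 (1602605 to 1623101, plus strand) exons of 2668 and 2646 bp were exons 20 and 21 of 29, and on scaffold 18 (4095659 to 4110662, minus strand) exons of 2027 and 2152 bp opened the ORF. At 2 others they stood at the outer ends or nearly so. On scaffold 20 (3631526 to 3647910, minus strand) exons of 3081 and 2060 bp were the first and the last of 8, with 132 to 474 bp in each exon between, and on scaffold 4 (6149268 to 6235610, minus strand) exons of 2478 and 5547 bp were exons 1 and 9 of 10. The latter ORF, of 11637 bp, was the longest of the 8. The pairs on scaffold 88 (3470 and 2094 bp), scaffold 7 (2154 and 3624 bp) and scaffold 115 (2229 and 2068 bp) were separated by shorter exons. The loci with the most exons, 29 each, were this locus on scaffold 45, that on scaffold 106 named above and one on scaffold 232 (102572 to 121082, plus strand), where a giant exon of 3522 bp was exon 3 and the other exons measured 68 to 551 bp.

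Internal giant exons began most often in phase 1. Of the 149, 78 began in phase 1 (52.3%, 44.4% to 60.2%), 38 in phase 0 (25.5%, 19.2% to 33.1%) and 33 in phase 2 (22.1%). For the 2060 other internal exons of the same loci the order was reversed, with 33.3% (31.3% to 35.3%) in phase 1 and 45.3% (43.2% to 47.4%) in phase 0. The longest internal exons of the long comparison loci began in phase 1 in 36.3% (34.1% to 38.6%) and in phase 0 in 43.5%. Over all exon numbers, the intervals for giant exons did not overlap either of these at phase 0 or phase 1. The share of phase 1 was 53.0% for internal giant exons of 2500 bp and over and 51.5% for shorter ones. It was 55.6% where the giant exon was exon 2 and 51.0% where it came later. By exon number it was 67.9% at 3 to 5 exons, 49.0% at 6 to 10 and 48.6% at 11 to 29. At 6 to 10 and 11 to 29 exons its intervals began at 35.9% and 37.2%. They overlapped that of the long comparison loci and lay above that of the other internal exons of giant-exon loci. Phases of the long comparison loci were not split by exon number, so a difference from them was not resolved with exon number held alike.

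The start phase also varied with the length of internal exons over all loci with 2 to 29 exons. Phase 1 took 28.6% of internal exons under 100 bp, 31.0% from 100 to 199 bp, 37.1% from 200 to 499 bp, 41.2% from 500 to 999 bp, 42.7% from 1000 to 1999 bp and 51.6% of those of 2000 bp and over. Phase 0 took 48.4% in the shortest class, 36.2% and 37.6% in the classes on either side of 1000 bp and 25.5% in the longest. The intervals of phase 1 overlapped between neighbouring classes from 500 bp upward (38.3% to 44.3%, 37.6% to 47.9% and 43.8% to 59.4%), and its higher share in longer exons was already present below 500 bp. The phase at the end of the exon showed less of it, as 39.6% of internal giant exons ended in phase 0 and 34.2% in phase 1, against 42.1% and 35.0% for the longest internal exons of the long comparison loci.

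**Figure D3:**
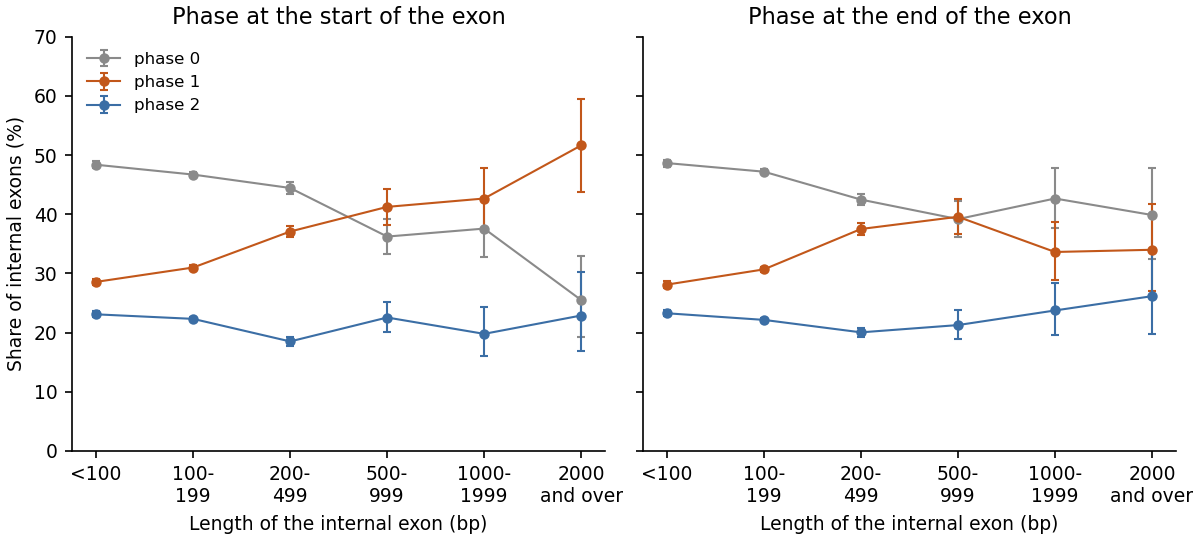
Share of internal coding exons (%) in each phase at their start and at their end, by exon length (bp), over all loci with 2 to 29 coding exons; bars are 95% Wilson intervals. At the start, phase 1 takes 28.6% under 100 bp and 51.6% at 2000 bp and over, and phase 0 takes 48.4% and 25.5%.

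At all places together, 141 of 315 giant exons (44.8%, 39.4% to 50.3%) were a whole multiple of 3. Internal giant exons held a whole number of codons about as often as other internal exons. Equal phases at both ends, which make an exon a whole multiple of 3, were found at 59 of 149 internal giant exons (39.6%, 32.1% to 47.6%), at 39.8% of the other internal exons of these loci and at 38.6% of the longest internal exons of the long comparison loci. The most frequent combination in internal giant exons was phase 1 at both ends (31 of 149, 20.8%), and for the other internal exons it was phase 0 at both ends (22.1%, against 10.7% of giant exons). At the ends of the ORF the intervals overlapped those of end exons that were longest in long comparison loci. A last giant exon began in phase 1 at 42 of 84 loci (50%, 39.5% to 60.5%) and in phase 2 at 8, whereas the last exons that were longest in long comparison loci began in phase 1 in 40.8% (36.1% to 45.7%), and phase 0 was found in 40.5% of last giant exons and 41.1% of these. A first giant exon ended in phase 0 at 47 of 82 loci (57.3%, 46.5% to 67.5%), beside 48.3% (42.8% to 53.7%) of the first exons that were longest in long comparison loci, and in phase 1 in 29.3% beside 31.0%. Where the giant exon was not last, the last exon of giant-exon loci began in phase 1 in 29.4% (23.9% to 35.6%). Where it was not first, the first exon ended in phase 0 in 32.6% (26.9% to 38.9%). Both intervals lay apart from those of giant exons at the same end. At 66 of these 233 loci exon 2 was the giant exon, so the end phase of the first exon was there its start phase. Of all first exons of the long comparison loci, 44.0% (42.1% to 46.0%) ended in phase 0. Of all their last exons, 32.1% (30.3% to 34.0%) began in phase 1. These intervals also lay apart from those of giant exons at the same end, narrowly so for first exons. A first exon that ends in phase 0 is a whole multiple of 3, so first giant exons were so more often than first exons of any length. Phases were counted from exon lengths, and the frame that the file gives fitted them in 2836 of 2839 exons of these loci. The CDS was a whole multiple of 3 at 314 of the 315 loci.

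The introns beside a giant exon were longer than the other introns of the same genes. The intron before it measured 489 bp at the median (95% interval 433 to 669 bp, n = 233) and the intron after it 659 bp (539 to 814 bp, n = 231), whereas the other 2060 introns had a median of 372 bp (341 to 424 bp). First introns were longer than later ones in all 3 sets of loci, so they were set apart. Among later introns, those beside the giant exon measured 480 bp (411 to 571 bp, n = 316) and the others 350 bp (320 to 391 bp, n = 1893). In the long comparison loci, later introns beside the longest exon measured 391 bp (363 to 412 bp) and the others 338 bp (331 to 345 bp). The same direction was therefore seen beside long exons without a giant one, at a smaller difference. Among first introns the order was turned, with 873 bp beside the giant exon (n = 148) and 1204 bp elsewhere (n = 167), and their intervals of 695 to 1137 bp and 893 to 1889 bp overlapped. In the long comparison loci, first introns measured 978 bp (825 to 1189 bp) beside the longest exon and 758 bp (704 to 833 bp) elsewhere. The span from the first to the last coding base was 11909 bp at the median, against 14516 bp in the long comparison loci with their larger number of introns.

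Since no sequence of these scaffolds was used, loci of like structure were looked for by exon lengths alone. This search was chosen after the data had been seen. A run of at least 4 consecutive internal exons with the same lengths in the same order was shared with another locus by 37 of the 186 giant-exon loci long enough to hold one (19.9%, 14.8% to 26.2%). The share was 26.3% (25.3% to 27.3%) in the comparison loci and 34.4% (32.5% to 36.3%) in the long comparison loci, whose larger exon number leaves more runs to match. A shared run is a description of gene structure. How often runs match by chance was not tested, and related genes cannot be told apart here from copies of 1 gene in the assembly, as no sequence was compared.

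In 8 pairs both loci of a shared run were giant-exon loci, and in each of the 8 the giant exons stood at the same distance, in exons, from the run. They also took the same place in the ORF in each pair, last in 4 and internal in 4. The 2 loci of a pair always lay on different scaffolds. The lengths of the giant exons themselves differed in all 8 pairs, by 108 to 1455 bp or 1.03 to 1.63 times. Of the 110 other exons that lay side by side once the giant exons were aligned, 65 (59.1%) were equal to the base. These 65 include the shared runs by which the pairs were found. The share is therefore set in part by the choice of pairs. In 7 pairs the phases at both ends were the same, which makes the difference in length a whole multiple of 3. In the 4 pairs with last giant exons, the equal end phase follows from a CDS that is a whole multiple of 3. With a run of 3 exons in place of 4, which more loci can share, 15 pairs were found, and the giant exons stood at the same distance in 10 of them.

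The nearest match in length was between scaffold 4 (7114717 to 7131972, plus strand) and scaffold 7 (620341 to 630400, minus strand). Both ORFs opened with exons of 128, 34, 86, 123, 117 and 85 bp, continued with 214 and 278 bp on scaffold 4 and 208 and 296 bp on scaffold 7, and closed with giant exons of 3228 and 3336 bp. On scaffold 128 (2307312 to 2334466, minus strand) and scaffold 13 (3128654 to 3140011, plus strand), exons of 155, 79, 136, 203, 137 and 142 bp were followed at both loci by a last giant exon, of 6588 and 6156 bp. In both of these pairs at least 6 of the exons before the giant one were equal, and the giant exon made up most of the difference in CDS length. Coverage was 281 on scaffold 128 and 79.7 on scaffold 13.

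The internal giant exons were embedded in shared ladders in the same way. On scaffold 52 (1458870 to 1494272, plus strand) and scaffold 12 (1529590 to 1550319, plus strand) the giant exon was exon 2, of 2191 and 2956 bp, and was followed at both by exons of 91, 94, 209, 151, 90 and 138 bp. Another locus, on scaffold 54 (141316 to 147019, minus strand), had these 6 exons after a first exon of only 1258 bp. The first exon before the giant one was 1062 bp on scaffold 52 and 24 bp on scaffold 12, so that the coding sequence on the other side of the giant exon differed as well. On scaffold 50 (2683004 to 2728351, plus strand) and another locus of scaffold 12 (5303222 to 5321832, minus strand) exon 18 of 20 was the giant one at both, of 2262 and 3351 bp, and the shared run of 142, 146, 143, 141, 117, 151 and 112 bp lay before it. The largest difference, of 1455 bp, was between exon 16 on scaffold 76 (879147 to 924789, plus strand, 3747 bp) and exon 16 on scaffold 68 (203912 to 226289, minus strand, 2292 bp), both followed by an exon of 148 bp. The pair on scaffold 573 (74284 to 120123, plus strand, 4649 bp) and scaffold 9 (342867 to 365264, minus strand, 3511 bp) was the one with unequal start phases.

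The remaining 2 pairs ended in a giant exon. Scaffold 12 (1463975 to 1486893, plus strand) and scaffold 69 (2292809 to 2314321, plus strand) each had 16 exons, of which the last measured 3374 and 2765 bp. Scaffold 92 (2360599 to 2386114, plus strand) and scaffold 108 (42967 to 53050, plus strand) had last exons of 2673 and 3339 bp after 21 and 12 others, and their coverage stood furthest apart of the 8 pairs, 134 against 2.68. Over the 8 pairs, coverage of the 2 loci differed 1.1 to 49.8 times.

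**Figure D4:**
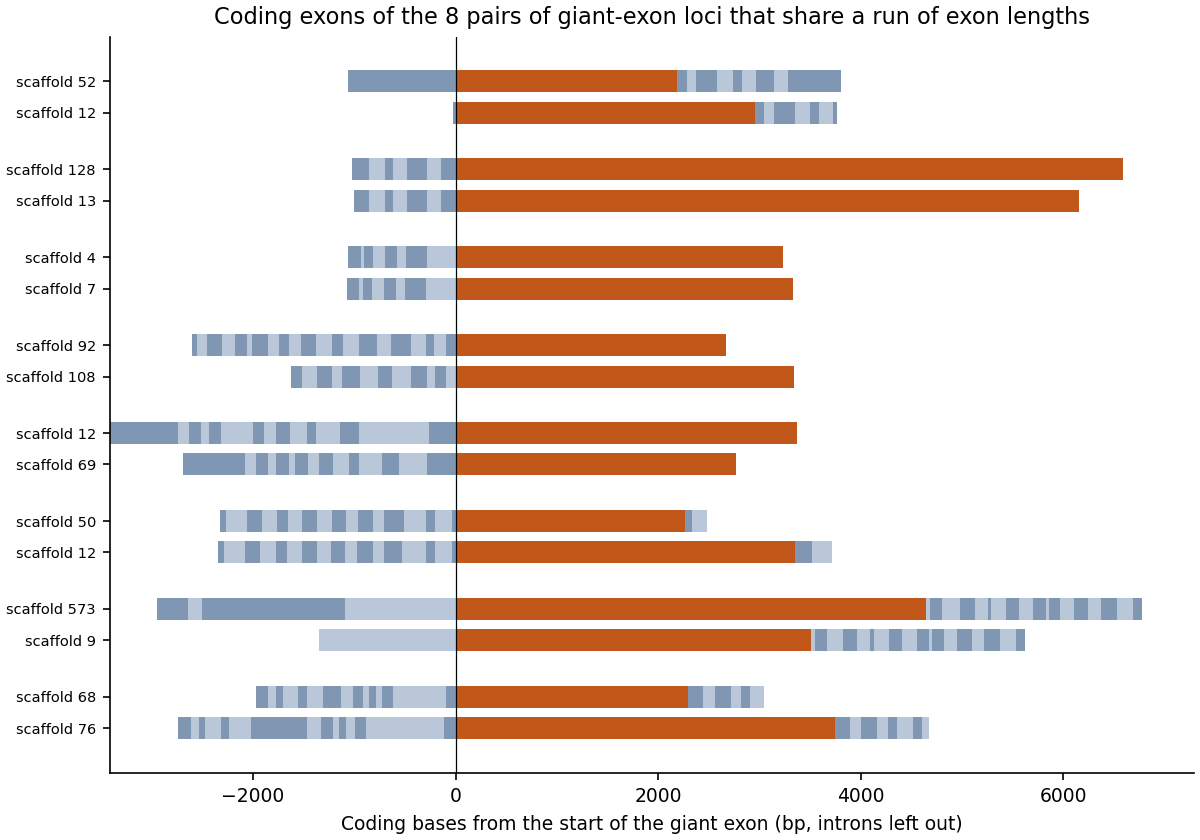
Coding exons, drawn to scale without introns, of the 8 pairs of giant-exon loci that share a run of at least 4 exon lengths; each row is 1 locus, aligned at the start of its giant exon (orange), with other exons in alternating blue shades and the axis in coding bases (bp). Giant exons stand at the same place in both rows of each pair and differ by 108 to 1455 bp.

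Among the 37 pairs with a partner that was no giant-exon locus, the exon at the same distance was the longest of the partner in 9, shorter than another exon of the partner in 16, and 12 partners had no exon there. One of the 9 partners was left out of the giant-exon loci only by its number of exons. On scaffold 34 (5677156 to 5756125, minus strand) an ORF of 32 exons ended with the same 184, 158, 179, 139, 357, 84, 105 and 99 bp as that on scaffold 33 described above, followed by adjacent giant exons of 3348 and 6198 bp in place of 3285 and 6168 bp. The others fell below 2000 bp. The last exon was 2169 bp on scaffold 485 (84722 to 98613, minus strand), 1902 bp on scaffold 483, 1281 bp on scaffold 273 and 720 bp on scaffold 252, after exons of 166, 168, 162 and 282 bp at all 4. On scaffold 439 (185531 to 198823, plus strand) exon 2 measured 2036 bp and its counterpart on scaffold 14 (474076 to 494150, plus strand) 1451 bp, both after a first exon of 70 bp. The limit of 2000 bp therefore separated some loci that shared a run of exons and a long exon beside it.

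Other transcripts of the same loci mostly kept the giant exon. Of the 315 loci, 192 had several transcripts (61.0%, beside 63.0% of the long comparison loci), with 266 transcripts besides the representative ones. The giant exon was present with the same ends in 152 of them (57.1%, 51.1% to 62.9%), shorter in 32, longer in 7, split by a gap in 11 and absent in 64 (24.1%, 19.3% to 29.5%). In the long comparison loci the longest exon was the same in 59.1% (57.0% to 61.1%) and absent in 32.7% (30.8% to 34.6%). The intervals overlapped for keeping the exon and did not for lacking it. Shortening went the other way. The 32 shortened giant exons among 266 transcripts had an interval of 8.65% to 16.5%, apart from 6.39% (5.45% to 7.48%) in the long comparison loci. An exon was counted as absent only where no base of it was kept. These shares were not scaled to the length of the exon, which was 2672 bp at the median for giant exons and 437 bp in the long comparison loci. Since exons were trimmed to the ORF, absence here means absence from the ORF, and the RNA may still hold the sequence. A transcript without the giant exon usually had a short ORF, of 314 bp at the median. In part this follows from the rule, as the representative transcript has most coding bases. Of the 64, 32 belonged to loci with a first giant exon, 20 to loci with an internal one and 12 to loci with a last one. As a share of the other transcripts, 42.7% (32.1% to 53.9%) lacked a first giant exon, against 15.3% (10.1% to 22.4%) for an internal one and 20.0% (11.8% to 31.8%) for a last one. A shortened giant exon kept 95% of its length at the median.

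A gap within the giant exon, as a short spliced segment would leave, was seen in 11 transcripts of 10 loci. This is 4.14% (2.32% to 7.25%) of the other transcripts, against 0.849% (0.544% to 1.32%) for the longest exon of the long comparison loci, a count not scaled to the length that could be split. Each of the 11 had 1 gap, of 54 to 875 bp with a median of 133 bp, and in 8 the gap was a whole multiple of 3. As exons were trimmed to the ORF, this count follows in part from the reading frame, which a gap of another length shifts. On scaffold 70 (767535 to 776917, minus strand) the transcript with a gap of 84 bp in an internal exon of 2820 bp had a coverage of 370 and the one without it 192. On scaffold 176 (57126 to 71253, plus strand) a gap of 81 bp in the exon of 6747 bp went with a coverage of 104, against 57.7 without it. In the other direction, a gap of 72 bp in the last exon of 2435 bp on scaffold 292 (665007 to 675873, plus strand) had a coverage of 204, against 325 without it. The transcript with the gap was covered more deeply in 3 of the 11.

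Read coverage, the mean depth of reads over a transcript, was lower at giant-exon loci than at long loci without one. Its median was 56.9 (95% interval 44.3 to 69.8, range 1.35 to 1442) at the 315 loci and 108 (100 to 117) at the long comparison loci, a ratio of 0.529. All comparison loci, with their shorter CDS, had a median of 79.8, and the 99 loci with 1 coding segment of at least 2000 bp had 23.1. In whole gonads, fewer cells of a type and less RNA per cell cannot be told apart. Coverage under 10 was found at 53 giant-exon loci (16.8%, 13.1% to 21.4%) and at 7.71% (6.72% to 8.83%) of the long comparison loci, and coverage of 500 or more at 7 (2.22%, 1.08% to 4.52%) against 5.34% (4.52% to 6.31%). Among all comparison loci these shares were 20.3% and 12.4%.

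The number of exons moved with this difference. Giant-exon loci with 2 exons had a median coverage of 21.9 and those with 3 to 5 exons 25.7, whereas those with 6 to 10 exons had 62.8 and those with 11 to 29 exons 96.1. In the long comparison loci the medians of these classes were 60.7, 51.2, 70.5 and 117. Giant-exon loci were thus the lower ones in each class, but the intervals overlapped in all 4, for example 67.1 to 131 against 107 to 126 at 11 to 29 exons. Coverage under 10 was found at 29.7%, 29.3%, 10.2% and 6.12% of giant-exon loci in these classes. In the long comparison loci the shares were 13.6%, 21.7%, 13.7% and 6.26%, and the intervals again overlapped in each class. By place, the median was 75.8 (56.9 to 109) for internal giant exons, 42.4 (22.0 to 66.2) for last and 40.1 (22.1 to 63.8) for first ones, and the internal ones had more exons (10 at the median, against 4 and 5). The length of the giant exon had little relation to coverage across the 315 loci (Spearman's rho = -0.07, a description over loci that share the same libraries), while the number of exons had a rho of 0.30.

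**Figure D5:**
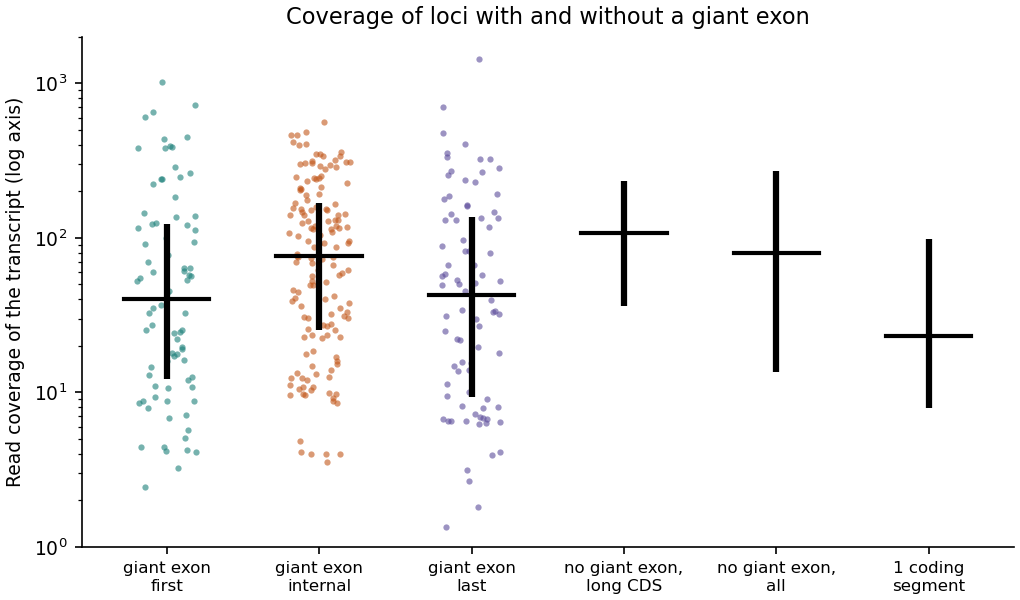
Read coverage per transcript (log axis) of giant-exon loci by place of the giant exon, 1 point per locus, beside long comparison loci, all comparison loci and loci with 1 coding segment of at least 2000 bp, for which only the summary is drawn; horizontal lines are medians and vertical bars the quartiles. Medians are 40.1, 75.8 and 42.4 for first, internal and last giant exons and 108 for the long comparison loci.

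The most and least covered giant-exon loci differed by about 3 orders of magnitude. The highest value, 1442, belonged to a locus on scaffold 112 (1491394 to 1494858, plus strand) with coding exons of 29, 71 and 2663 bp. The next, 1013, belonged to one on scaffold 507 (103988 to 118226, plus strand), where a first exon of 5707 bp was followed by 12 exons of 19 to 80 bp. The third, 728, was on scaffold 57 (329142 to 350567, minus strand) with a first exon of 2179 bp among 19. The lowest values were 1.35 on scaffold 257 (130453 to 142887, plus strand), 1.80 on scaffold 4 (2184727 to 2193261, minus strand) and 2.44 on scaffold 39 (4239597 to 4247611, plus strand), and at this depth their models rest on few reads.

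Giant-exon loci were spread over 181 scaffolds and rarely adjacent. One such locus lay on each of 108 scaffolds, and the most on any scaffold was 7, on scaffold 3 (of 245 spliced loci) and scaffold 7 (of 191). On the plus strand lay 166 and on the minus strand 149. Among 13905 pairs of neighbouring spliced loci, 13 consisted of 2 giant-exon loci, 9 of them on the same strand, and a neighbour of a giant-exon locus was itself one in 4.33%, beside the 2.03% that giant-exon loci make of all spliced loci. The 13 pairs formed 12 runs. The only run of 3 was on scaffold 93, on the plus strand throughout. Its loci had exons of 388 and 3599 bp (208917 to 213168), exons of 115 and 4163 bp (215889 to 222131), and 9 exons with a giant exon of 3641 bp as exon 3 (232442 to 241856), 2720 and 10310 bp apart. Their coverage was 269, 352 and 73.3.

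The other runs were pairs, with a median gap of 15831 bp over all 13. The gap was shortest on scaffold 115, where 2449 bp separated an ORF ending in an exon of 2016 bp (1320628 to 1324353) from one with giant exons of 2229 and 2068 bp (1326803 to 1335750), both on the plus strand. On scaffold 16 (plus strand) loci of 3 exons each, with giant exons of 2636 bp first (2845122 to 2853822) and 2071 bp in the middle (2877714 to 2881579), lay 23891 bp apart. Neighbouring models can be parts of one gene, which was not tested. Another locus overlapped the giant exon at 28 of the 315, a single-segment ORF on the same strand in 18 cases, one on the opposite strand in 9 and a spliced locus on the opposite strand in 1, and strand was not marked by the library protocol as described.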

How the data were processed

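Poly(A) RNA from 3 gonad types (ovary, ovotestis and testis, 1 library each) was sequenced. Alignment by the authors was to scaffolds of their own assembly. The submitters' processing notes list Cufflinks 1.1.0, which assembles transcripts, beside TopHat 1.3.3 and Bowtie 0.12.7, and the paper gives a later Cufflinks. ORFs were then selected by a hidden Markov model, to which the exons were trimmed. The deposited annotation gives coordinates, a frame, a coverage and an FPKM value per transcript for the series as a whole. FPKM appeared to be scaled differently between groups of identifiers, so coverage was used. No number of reads per library is given, and 0 per-sample columns were left unused. Pooling of the libraries before assembly is not stated.

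Exons were ordered by coordinate and strand, and introns are the gaps between them. Wilson intervals (95%) were computed for shares and order-statistic intervals for medians, in Python 3.11.15 (scipy 1.17.1, numpy 2.4.6). Plots were drawn in matplotlib 3.10.9. The steps were tested on simulated annotation. No test between conditions was possible, since there are no values per gonad. Loci named are the 10 longest giant exons, the 3 longest in each place, up to 5 loci with 2 giant exons, the 5 with most exons, the 3 with extreme coverage and share of the CDS, the 3 on each side of the length limit and the 3 longest runs of neighbours; the other 3 loci with 2 giant exons and the loci in shared runs and with gaps were chosen after their values were seen. The members and lists were chosen with earlier results of these data known. Alternatives covered the length limit, the representative transcript, the exon number, small gaps, the reading frame, overlapping loci and the measure of expression.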

Additional observations from a re-analysis of the deposited data

How the results depend on the processing

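Of 120 alternative values, 106 stayed within the interval of the reported one, or within 1.5 times it for the number of loci, and 14 did not. Some settings could hardly move a value and add little to the 106. Joining gaps under 30 bp changed nothing, as the shortest intron was 59 bp at giant-exon loci and 43 bp at comparison loci. A coverage of at least 1 removed no giant-exon locus (lowest 1.35). Requiring a CDS that is a whole multiple of 3, or merging overlapping loci, kept 314 of the 315. With giant exons of at least 1500 bp there were 584 loci in place of 315, 32.4% of giant exons were last and the median share of the CDS was 68.3%. With limits of 2500 and 3000 bp there were 188 and 120 loci, and shares of 77.5% and 79.3%. Median coverage was 79.7 with the most covered transcript of each locus, 110 when summed over transcripts, and 345 as FPKM, another unit. With the most covered transcript, 63.8% of the other transcripts kept the giant exon. The runs of exon lengths, added after the data were seen, were shared by 32.9% of loci at 3 exons and 12.7% at 5, and 66.7% of pairs at 3 exons had giant exons at the same distance. The ratio of coverage to the long comparison loci and the share of internal giant exons starting in phase 1 stayed within their intervals throughout. None of the alternatives held the number of exons alike between the sets of loci, so they do not bear on that difference. No paired analysis was possible because each gonad type has 1 library and no values of its own. Depth limits the models under a coverage of 10, and loci are not replicates of a condition.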
